A study of Mus musculus with 48 samples.

Results

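Epcam, Cdh1, Cdh2, Cldn3, Cldn4, Cldn7, Dsp, Perp, Lad1 and St14 are 10 genes of epithelial cell adhesion and cell junctions, chosen by name from the 24054 gene symbols measured, and all 10 were present. They were followed through 48 RNA-seq libraries of mouse breast tumours, 3 in each of 16 groups. Cultured tumour lines made up 24 libraries: T11, 2208L and 4T1 at passage 15 to 20 and 67NR at passage 19, labelled BALB/C, and PyMT-M at passage 7, PyMT-N and E0771 at passage 14 and AT3 at passage 15, labelled C57BL/6. Each line is a single culture model. T11 and 2208L derive from p53-null mammary tumours, 4T1 and 67NR from one spontaneous tumour, AT3 and the PyMT lines from tumours driven by the polyoma middle T oncogene, and E0771 from a spontaneous tumour. E0771 was grown in RPMI medium with HEPES and the others in high-glucose DMEM. The authors' column names mark 2208L, 4T1, PyMT-N and AT3 as Epi and T11, 67NR, PyMT-M and E0771 as Mes. The remaining 24 libraries held leukocytes from dissociated T11, 2208L, E0771 and AT3 tumours, sorted as DAPI- CD45+ CD11b+ cells. Neutrophils were the Ly6G+ cells with medium to low Ly6C, and macrophages the Ly6G- Ly6C- F4/80+ cells. Replicate 1 of both E0771 cell types carries the strain label BALB/C, against C57BL/6 for the other E0771 and AT3 libraries. The column names give neutrophils and macrophages of a tumour the same numbers, but no label says that a number stands for an animal or culture, so a p-value here measures spread among libraries that may be technical.

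Epithelial cells hold together through several kinds of junction. In the adherens junction, E-cadherin (Cdh1) on one cell binds E-cadherin on the next and is tied to actin through catenins; N-cadherin (Cdh2) does the same in neurons and mesenchymal cells, and a change from E- to N-cadherin is a classical sign of epithelial-mesenchymal transition in carcinoma. Claudins are the strand-forming proteins of the tight junction, desmoplakin (Dsp) links the desmosome to keratin filaments, and Perp is a p53-induced membrane protein needed for desmosomes. EpCAM is a surface adhesion protein of simple epithelia and carcinomas. Ladinin (Lad1) is a filament-associated protein first found at the epithelial basement membrane, and matriptase (St14) is a membrane serine protease that cleaves other epithelial surface proteins. E-cadherin is also known from alternatively activated macrophages and from dendritic cells.

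In mm10, Epcam lies at chr17:87635979-87651129, Cdh1 at chr8:106603351-106670246, Perp at chr10:18845020-18857073 and Dsp at chr13:38151294-38198577. Cldn3 (chr5:134986214-134987472) and Cldn4 (chr5:134945119-134946934) are neighbours on opposite strands, and Cldn7 lies at chr11:69964779-69967885. Lad1 lies at chr1:135818598-135833342 and St14 at chr9:31089402-31131853. Reads were not stated to be counted by strand, and Cldn3 overlaps Wbscr25 on the opposite strand, so reads of these 2 cannot be told apart. Because 9 of the 10 genes moved together across the lines, promoter windows were read from 250 bases before to 50 after the annotated start in RefSeq on GRCm38.p6. Windows were present for 6 members, with 2 for Cldn7, and not for Cdh1, Perp and St14. Capitals mark CACCTG on either strand (CAGGTG on the other), the E-box read by the Zeb and Snail repressors. 4 windows are shown because 3 of them held 2 matches each and Cldn3 is the neighbour of Cldn4. The windows are chr17:87635729-87636028 (plus strand) for Epcam, chr5:134946885-134947184 (minus strand) for Cldn4, chr5:134985964-134986263 (plus strand) for Cldn3 and chr11:69965171-69965470 (plus strand) for Cldn7.
Epcam: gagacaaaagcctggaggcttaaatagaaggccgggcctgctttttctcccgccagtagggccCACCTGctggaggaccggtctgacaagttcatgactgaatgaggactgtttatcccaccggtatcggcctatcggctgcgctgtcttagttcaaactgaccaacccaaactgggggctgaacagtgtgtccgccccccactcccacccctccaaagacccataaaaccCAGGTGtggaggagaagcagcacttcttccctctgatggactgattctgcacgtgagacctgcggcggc
Cldn4: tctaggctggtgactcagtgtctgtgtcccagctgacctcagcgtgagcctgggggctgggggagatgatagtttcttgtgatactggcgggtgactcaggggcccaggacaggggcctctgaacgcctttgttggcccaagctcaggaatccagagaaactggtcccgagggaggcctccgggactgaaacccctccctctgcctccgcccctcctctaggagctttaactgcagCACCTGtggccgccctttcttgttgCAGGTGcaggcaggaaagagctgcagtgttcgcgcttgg
Cldn3: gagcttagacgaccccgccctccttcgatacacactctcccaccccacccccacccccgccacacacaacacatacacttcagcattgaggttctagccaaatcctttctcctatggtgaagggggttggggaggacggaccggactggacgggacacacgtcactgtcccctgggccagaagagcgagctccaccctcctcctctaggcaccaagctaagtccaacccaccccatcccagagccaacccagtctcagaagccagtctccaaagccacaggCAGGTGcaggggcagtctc
Cldn7: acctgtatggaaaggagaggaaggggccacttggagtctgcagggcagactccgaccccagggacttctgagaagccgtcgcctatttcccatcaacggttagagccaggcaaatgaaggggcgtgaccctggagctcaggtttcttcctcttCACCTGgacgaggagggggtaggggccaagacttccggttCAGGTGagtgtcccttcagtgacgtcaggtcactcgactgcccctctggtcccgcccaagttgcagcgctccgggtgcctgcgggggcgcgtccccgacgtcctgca

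The 2 Epcam matches began 187 and 19 bases upstream of the start, those of Cldn7 97 and 57 bases upstream, and those of Cldn4 14 bases upstream and 11 downstream. Cldn3 held 1 match 31 bases downstream and Dsp 1 match 3 bases downstream, while the Lad1 window and the other Cldn7 window held none. So 5 of 7 windows carried the letters, against 20.2% of all 32851 windows of this length, and 3 carried at least 2, against 2.88%. The letters AACNNGTT, a form of the motif of grainyhead-like activators, stood in none of the 7 windows and in 4.20% of all. With no match of AACNNGTT in these windows, the motifs searched could not overlap. These matches are descriptions of sequence and show no binding.

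Levels are given as CPM, counts scaled to a common total, computed over the counts outside Rn45s, the ribosomal RNA precursor. Rn45s took 3.88% to 14.9% of line counts, 26.8% to 70.3% of neutrophil counts and 55.0% to 76.2% of macrophage counts. A line library kept 1893268 to 5749088 other counts, a neutrophil library 470712 to 1185233 and a macrophage library 683150 to 1755895, so that 3 counts stood for 0.522 to 1.58, 2.53 to 6.37 and 1.71 to 4.39 CPM. As a measure of background, 1437 genes of olfactory and vomeronasal receptors, which most tissues do not express, were summed per kilobase (kb) of exon. Before division by exon length they summed to 617 to 2961 CPM in the lines, 3857 to 18862 in the neutrophils and 868 to 3239 in the macrophages. Per kb of their exons this was 0.115 to 0.553 CPM in the lines, 0.721 to 3.52 in the neutrophils and 0.162 to 0.605 in the macrophages. This level per kb is the receptor level used below. The summed leukocyte markers Ptprc and Itgam stood at 544 to 2461 CPM in neutrophils, 863 to 3568 in macrophages and at most 34.8 in lines. The neutrophil list stood at 3154 to 7929 CPM in T11 macrophages, against 110 to 359 in the other macrophages and 2471 to 6856 in T11 neutrophils. In bulk samples fewer cells of a type and less RNA per cell cannot be told apart.

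Among the lines, Epcam, Cdh1, the 3 claudins, Dsp, Perp, Lad1 and St14 were high in PyMT-N, 2208L and 4T1 and low in the remaining 5, AT3 with its Epi mark included. Cdh2 had a different pattern, with high levels in PyMT-N and 67NR and an intermediate one in AT3. All 10 genes differed among the 8 lines (edgeR quasi-likelihood test with Benjamini-Hochberg adjustment, used throughout), where 89.3% of 18183 genes did. Per kb of exon, the highest of the 9 in PyMT-N, 2208L and 4T1 was Perp, at 126 to 219 CPM per kb over the 9 libraries, and the lowest was Dsp, at 11.1 to 17.4. In the same libraries Epcam stood at 101 to 175 CPM per kb, Cdh1 at 54.3 to 86.9 and St14 at 16.2 to 26.9.

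**Figure D1:**
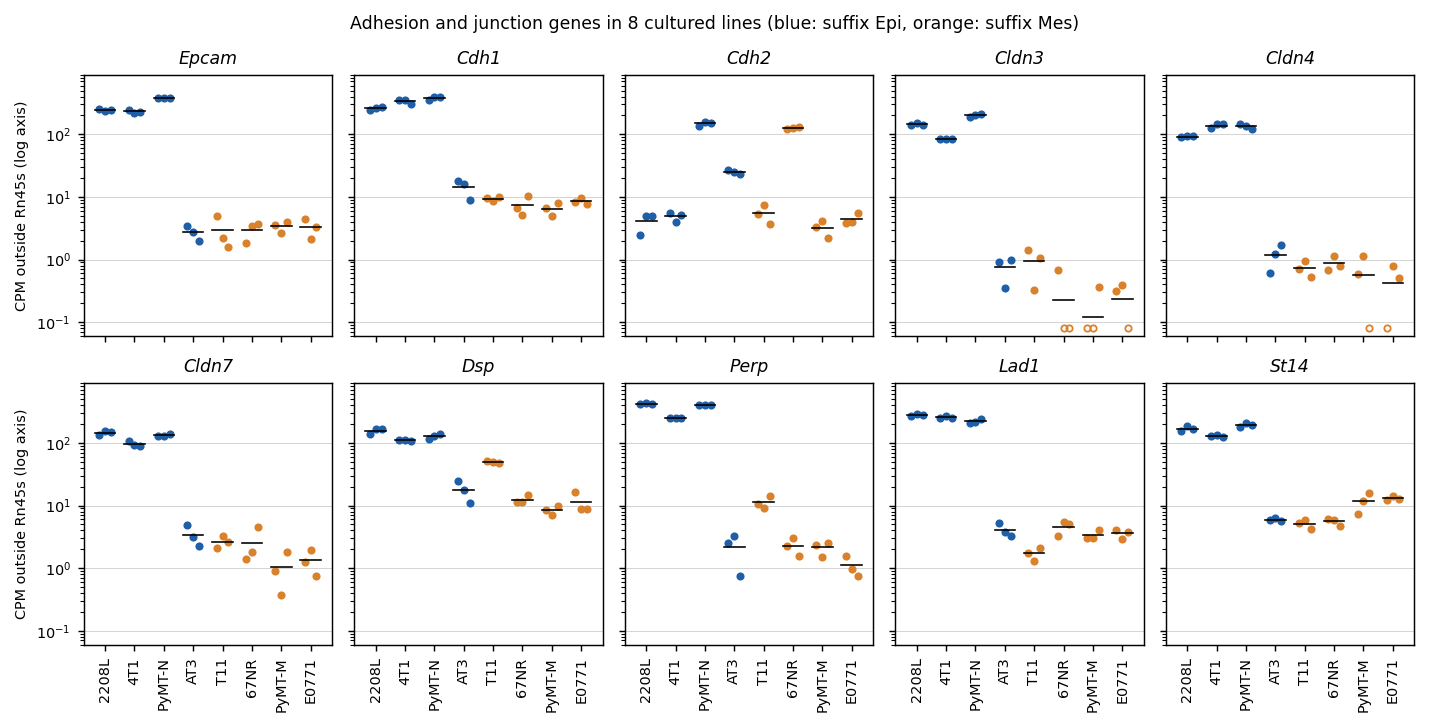
Level of each of the 10 genes in the 24 line libraries, in CPM of counts outside Rn45s on a log axis; points are libraries (hollow at 0 counts), bars are means of 3, blue marks lines with the suffix Epi and orange those with Mes. Apart from Cdh2, PyMT-N, 2208L and 4T1 stand above the others in every gene, and AT3 sits with the lines marked Mes.

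Epcam stood at 383, 379 and 384 CPM in the 3 libraries of PyMT-N, at 252, 234 and 248 in 2208L and at 247, 222 and 225 in 4T1. In T11 it was 4.97, 2.25 and 1.58 CPM, in 67NR 1.84, 3.45 and 3.69, in PyMT-M 3.57, 2.62 and 4.00, in E0771 4.43, 2.16 and 3.28, and in AT3 3.41, 2.78 and 1.97. Every library of the first 3 lines was above every library of the other 5, and the 5 low lines overlapped. In the order of levels, PyMT-N exceeded 2208L by 0.88 ± 0.09 (log2 difference ± SE) and 2208L exceeded 4T1 by 0.48 ± 0.09, both passing at adjusted p below 0.05. By CPM, without the TMM factors of the fit, the libraries of 2208L and 4T1 overlapped. The step from 4T1 to the next line was 5.69 ± 0.18, and no neighbours among the 5 low lines differed beyond their spread. Against the receptor genes, Epcam in the low lines was 2.80 to 10.2 times their level per kb, so these low values lie near the background.

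Cdh1 stood at 358, 395 and 398 CPM in PyMT-N, 358, 350 and 305 in 4T1 and 249, 263 and 270 in 2208L. In AT3 it was 17.7, 16.4 and 8.89 CPM, and over T11, 67NR, PyMT-M and E0771 it ran from 4.87 to 10.3. E-cadherin RNA was thus high in the same 3 lines, and the libraries of AT3 reached into the range of the other low lines. PyMT-N exceeded 4T1 by 0.83 ± 0.09 log2, 4T1 and 2208L did not differ beyond their spread (-0.03 ± 0.10), and 2208L exceeded AT3 by 4.48 ± 0.13. By CPM, without the TMM factors of the fit, every 4T1 library was above every 2208L library.

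Cdh2 stood at 138, 159 and 154 CPM in PyMT-N, 121, 125 and 131 in 67NR and 27, 25.2 and 23 in AT3. It was 5.49, 3.96 and 5.22 CPM in 4T1, 2.44, 4.98 and 4.89 in 2208L, 5.33, 7.38 and 3.70 in T11, 3.79, 3.93 and 5.55 in E0771 and 3.27, 4.12 and 2.18 in PyMT-M. N-cadherin RNA was therefore high in 1 line with high E-cadherin and in 1 line with low E-cadherin, and low together with E-cadherin in T11, E0771 and PyMT-M. The steps from PyMT-N to 67NR (0.69 ± 0.10 log2), from 67NR to AT3 (2.42 ± 0.12) and from AT3 to T11 (1.94 ± 0.21) passed, and none of the steps below did.

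Among the claudins, Cldn3 stood at 189, 203 and 209 CPM in PyMT-N, 140, 150 and 141 in 2208L and 84.3, 85.0 and 85.0 in 4T1. Across the 15 libraries of the other 5 lines it ran from 0 to 1.42 CPM, with 1 count in all in PyMT-M, 3 in 67NR, 3 in E0771, 7 in T11 and 9 in AT3. The order PyMT-N, 2208L, 4T1 and then T11 passed at each step. Cldn4 stood at 124, 145 and 144 CPM in 4T1, 147, 133 and 122 in PyMT-N and 89.5, 94.3 and 92.4 in 2208L, and from 0 to 1.73 in the other 5 lines. The higher mean CPM of Cldn4 in 4T1 than in PyMT-N turned round in the fit, where TMM factors scale the libraries (-0.60 ± 0.10 log2). Cldn7 stood at 134, 154 and 151 CPM in 2208L, 129, 131 and 136 in PyMT-N and 108, 91.6 and 87.6 in 4T1, and from 0.375 to 4.96 elsewhere. For all 3 claudins the low lines lay at no more than 8.45 times the receptor level, and neighbours among them did not differ beyond their spread.

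Of the desmosomal pair, Dsp stood at 139, 165 and 168 CPM in 2208L, 115, 130 and 139 in PyMT-N and 110, 111 and 107 in 4T1. T11 came next with 50.8, 49.1 and 47.5 CPM, and AT3, E0771, 67NR and PyMT-M ran from 7.12 to 24.5. Of the 9 genes high in 2208L, PyMT-N and 4T1, Dsp had the smallest ratio between the lowest of these lines and the next line: 4T1 exceeded T11 by 0.87 ± 0.13 log2 (adjusted p = 1.1e-08), and T11 exceeded AT3 by 1.69 ± 0.15 (adjusted p = 3.7e-17). Perp stood at 410, 428 and 410 CPM in 2208L, 409, 403 and 407 in PyMT-N and 247, 247 and 248 in 4T1. Perp was 10.7, 8.98 and 14.3 CPM in T11 and 0.741 to 3.30 over the 12 libraries of 67NR, PyMT-M, E0771 and AT3. Like Dsp, it was higher in T11 than in the next line, here 67NR, by 2.30 ± 0.28 log2 (adjusted p = 3.4e-11). In T11 both stood clear of the receptor genes, Dsp at 19.4 to 26.1 and Perp at 23.6 to 28.8 times their level per kb.

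Lad1 stood at 267, 293 and 283 CPM in 2208L, 252, 266 and 249 in 4T1 and 209, 215 and 238 in PyMT-N, and St14 at 181, 206 and 192 in PyMT-N, 154, 185 and 166 in 2208L and 130, 135 and 123 in 4T1. As with Cldn4, the higher CPM of Lad1 in 4T1 than in PyMT-N turned round in the fit (-0.43 ± 0.09 log2, adjusted p = 2.4e-05). In the other 5 lines Lad1 ran from 1.28 to 5.51 CPM and was lowest in T11, which PyMT-M exceeded by 1.07 ± 0.43 log2 (adjusted p = 0.048). St14 was 12.3, 13.9 and 12.9 CPM in E0771 and 7.44, 11.6 and 16 in PyMT-M, and ran from 4.23 to 6.26 in AT3, 67NR and T11. The protease was thus low but unequal among the low lines: PyMT-M exceeded AT3 by 1.20 ± 0.23 log2 (adjusted p = 5.6e-06).

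Over the means of the 8 lines on the log2(CPM + 1) scale, the 36 correlations among the 9 genes without Cdh2 ran from 0.83 to 1.00, and those of Cdh2 with them from 0.01 to 0.13. These 8 points share their libraries and their scaling, and the high values rest on 3 high and 5 low lines. Counting the 28 pairs of lines, St14 differed in 24, Dsp in 23, Perp in 22, Lad1 in 21, Cdh1 in 20 and Cldn7 in 19. Epcam, Cldn3 and Cdh2 differed in 18 each and Cldn4 in 17, against 47.2% of all gene and pair combinations. Among 9343 genes ranked, those whose 8 line means were most like Epcam were Cxcl16 (Pearson r = 0.996), Krt7 (0.995) and Padi4 (0.994). Cxcl16, a transmembrane chemokine, was also the most alike to Cdh1 (0.995) and Cldn3 (0.998), and Esrp1, an epithelial splicing regulator, to Cldn7 (0.997). Padi4 was the most alike to Cldn4 (0.996) and Krt7 to Lad1 (0.996). Dsp was nearest to Dnaja4 (0.987), Perp to the junctional adhesion molecule F11r (0.985), St14 to Rc3h1 (0.992) and Cdh2 to Glipr1 (0.961).

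Each line with the suffix Epi was set against a line of its strain with the suffix Mes. In the PyMT pair all 10 genes were higher in PyMT-N than in PyMT-M, where 23.3% of genes were. Epcam was higher by 7.05 ± 0.16 log2 (adjusted p = 5.2e-58), Perp by 7.79 ± 0.17 (2.2e-59), Cldn4 by 8.06 ± 0.24 (1.3e-49) and Cdh1 by 6.14 ± 0.15 (1.4e-55). The smallest differences were those of Dsp (4.18 ± 0.16) and St14 (4.33 ± 0.14). Cdh2 moved with Cdh1 in this pair and was higher in PyMT-N by 5.80 ± 0.18 (1.7e-48). For Cldn3, 2852 counts in PyMT-N stood against 1 in PyMT-M, a ratio of 1752 with an exact 95% counting interval of 314 to 69243.

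Between 4T1 and 67NR, Cdh1 and Cdh2 went opposite ways. The 9 other genes were higher in 4T1, where 22.1% of genes were, and Cdh2 was lower by 4.88 ± 0.18 log2 (adjusted p = 4.7e-42), where 25.4% were. Scaled with TMM factors from genes above the receptor background, the shares of all genes became 31.4% and 19.8%, and the calls on the 10 genes stayed. Cldn4 was higher by 7.03 ± 0.22, Perp by 6.51 ± 0.17, Epcam by 6.07 ± 0.16 and Cdh1 by 5.34 ± 0.14, and Dsp by 2.95 ± 0.15. Cldn3 had 590 counts in 4T1 and 3 in 67NR, a ratio of 353 (counting interval 120 to 1719).

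In 2208L against T11, 9 genes were higher, where 22.5% of genes were. Lad1 differed most, by 7.49 ± 0.18 log2 (adjusted p = 2.2e-55), followed by Cldn3 (7.39 ± 0.23), Cldn4 (6.96 ± 0.26) and Epcam (6.42 ± 0.18). Dsp differed least, by 1.79 ± 0.12 (1.2e-24). Cdh2 did not pass (-0.41 ± 0.31, adjusted p = 0.31).

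AT3 and E0771, by contrast, were both low. In neither line did a member stand above 10 times the receptor level per kb in all 3 libraries. The receptor genes themselves stood at 0.276 to 0.502 CPM per kb in AT3 and 0.175 to 0.326 in E0771. The part of this background in the differences below was not tested. Of the 10 genes, 4 were higher in AT3, where 19.0% of genes were, and 1 was lower, where 26.8% were. With factors from genes above the background those shares were 32.2% and 18.3%. Cdh2 was higher by 2.34 ± 0.20 log2 (adjusted p = 4.3e-18) and St14 lower by 1.28 ± 0.21 (1.2e-07). The differences of Cdh1 (0.57 ± 0.19, 0.012), Cldn7 (1.08 ± 0.41, 0.023) and Dsp (0.52 ± 0.18, 0.015) were smaller. Each of those 3 missed the threshold without E0771 replicate 3 (adjusted p = 0.066, 0.15 and 0.12), and each also without 1 or 2 of AT3 replicates 1 and 2 and E0771 replicates 1 and 2. Epcam (-0.36 ± 0.33), Lad1 (0.03 ± 0.29), Perp (0.93 ± 0.44) and Cldn4 (1.12 ± 0.62) did not pass, and Cldn3 held 9 counts in AT3 and 3 in E0771, a ratio of 2.82 (counting interval 0.703 to 16.2).

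**Figure D2:**
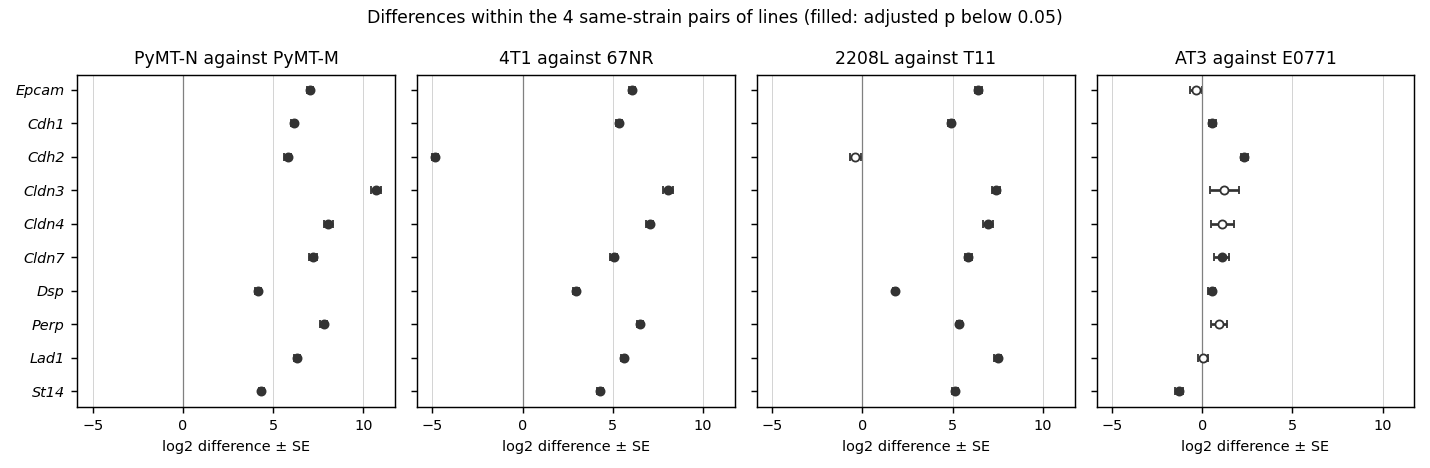
Difference in each of the 10 genes between the lines of the 4 same-strain pairs, in log2 with its SE from the fit over 24 libraries; filled symbols mark an adjusted p below 0.05. Values lie far above 0 in 3 pairs, with Cdh2 below 0 in 4T1 against 67NR, and between -1.28 (St14) and 2.34 (Cdh2) in AT3 against E0771; Cldn3 in PyMT-M, 67NR and E0771 rests on 1 to 3 counts.

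The pairs were also compared with each other. All 10 genes differed between the AT3 and E0771 pair and the 2208L and T11 pair: 9 had a smaller difference in the former, where 26% of genes did, and Cdh2 a larger one, by 2.74 ± 0.38 log2, where 19.5% did. With factors from genes above the background the shares were 19.3% and 30.8%. Lad1 led with -7.46 ± 0.44, then Epcam (-6.78 ± 0.46) and St14 (-6.39 ± 0.28), and Dsp was least, at -1.27 ± 0.22. The difference was larger in the PyMT pair than in the 4T1 and 67NR pair for 6 genes, where 26.2% of genes were larger and 21.8% smaller, or 21.4% and 29.8% with those other factors. They were Cdh2 (10.68 ± 0.25), Cldn7 (2.18 ± 0.52, adjusted p = 0.00023), Dsp (1.22 ± 0.25, 1.6e-05), Perp (1.28 ± 0.42, 0.0085), Epcam (0.98 ± 0.37, 0.021) and Cdh1 (0.80 ± 0.27, 0.012). Epcam and Cdh1 were not called with the other factors (adjusted p = 0.069 and 0.075), and without PyMT-M replicate 2 neither of them nor Perp passed (0.095, 0.095 and 0.051). Lad1 (0.71 ± 0.32), Cldn4 (1.02 ± 0.73) and St14 (0.04 ± 0.29) did not pass. In the mean of the 4 pairs all 10 genes were called higher in the lines marked Epi, where 22% of genes were, with Epcam at 4.80 ± 0.17 and Cdh2 at 0.71 ± 0.14. This mean does not hold in each pair. Cdh2 was 5.80 in the PyMT pair, -4.88 in 4T1 against 67NR, -0.41 in 2208L against T11 and 2.34 in AT3 against E0771. Epcam was -0.36 in AT3 against E0771. The SE of the mean measures spread among libraries, not among the 4 pairs.

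Other junction genes were counted from lists that were put together with earlier results of these data known. Over all genes, 23.3% rose and 21.8% fell in PyMT-N against PyMT-M, 22.1% and 25.4% in 4T1, 22.5% and 19.1% in 2208L and 19.0% and 26.8% in AT3 against their partners, and the counts below are to be read against these shares. Of 16 tight junction genes tested, 13 rose in PyMT-N, 12 in 4T1, 14 in 2208L and 8 in AT3 against their partners, and none fell. Their median log2 differences were 2.83, 1.62, 2.12 and 0.50, against -0.10, 0.08, -0.04 and 0.05 over all genes. F11r was higher by 5.35 ± 0.18, 4.88 ± 0.21 and 4.88 ± 0.18 in the first 3 pairs, and Cldn1 by 4.84 ± 0.19 in PyMT-N and 5.67 ± 0.20 in 2208L. Of 9 desmosomal genes, 7 rose in PyMT-N, 7 in 4T1 and 6 in 2208L and none fell, while in AT3 1 rose and 1 fell. The desmosomal cadherin Dsg2 was higher by 4.52 ± 0.21, 3.98 ± 0.18 and 3.59 ± 0.19. Jup, the catenin shared by desmosomes and adherens junctions, was higher by 3.70 ± 0.14, 3.26 ± 0.16 and 3.04 ± 0.13 and lower in AT3 by 1.68 ± 0.18. Of 12 adherens junction genes, 10 rose and none fell in PyMT-N, 6 rose and 3 fell in 4T1, 9 rose and 2 fell in 2208L, and 3 rose and 4 fell in AT3, where both counts lie near the shares over all genes. The falls in 4T1 and 2208L lie near those shares too.

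Of 5 genes around matriptase, all rose in PyMT-N and in 4T1, 3 rose in 2208L, and in AT3 1 rose and 1 fell. The inhibitor Spint2 was higher by 4.57 ± 0.14 in PyMT-N, 5.64 ± 0.19 in 4T1 and 5.55 ± 0.20 in 2208L and lower by 2.97 ± 0.28 in AT3, the direction St14 had in each pair. Of 8 hemidesmosome and basement membrane genes, 7 rose and none fell in PyMT-N, 6 rose and 2 fell in 4T1, 5 rose and 2 fell in 2208L, and 3 rose and 3 fell in AT3, the falls in 4T1 and 2208L being near the shares over all genes. Of 5 mesenchymal cadherins, none rose and 3 fell in PyMT-N, led by Cdh13 (-4.42 ± 0.21), 2 rose and none fell in 4T1, Cdh13 (1.22 ± 0.29) and Cdh11 (0.98 ± 0.30), 2 rose and 1 fell in 2208L, Cdh13 (-3.25 ± 0.20), and 1 fell and none rose in AT3, Cdh13 (-1.74 ± 0.14). Of 13 regulators, 7 rose and 2 fell in PyMT-N, 6 and 4 in 4T1, 8 and 3 in 2208L and 2 and 3 in AT3; the list mixes activators and repressors, and the falls in 2208L and both AT3 counts lie near the shares over all genes. Esrp1 was higher by 5.35 ± 0.17, 4.03 ± 0.17 and 5.09 ± 0.17 in the first 3 pairs. Zeb1, one of the repressors that read CACCTG, was lower by 3.64 ± 0.15 in PyMT-N and 3.57 ± 0.16 in 4T1, and Snai2 was lower by 3.40 ± 0.24 in 2208L and higher by 4.09 ± 0.21 in AT3. In no pair were Zeb1, Zeb2, Snai1, Snai2 and Twist1 all lower, since only 2 to 4 regulators fell in each.

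In sorted leukocytes 7 of the 10 genes had their highest neutrophil mean in 2208L tumours, the exceptions being Cdh2, Perp and St14 (highest in T11), and 9 had their highest macrophage mean there, the exception being Perp (5.30 CPM in E0771, 5.15 in 2208L). Of the 10 genes, 6 stood above 10 times the receptor level per kb in all 3 libraries of 2208L neutrophils (Epcam, Cdh1, Cldn3, Cldn4, Dsp, Lad1) and 6 in 2208L macrophages (the same with Cldn7 in place of Cldn4). In E0771 macrophages 2 did, Cldn4 and Lad1, in AT3 macrophages 1, Cdh1, and in T11 macrophages and the neutrophils of the other 3 tumours none. Among the tumours, 8 of the 9 genes that passed the count filter differed in macrophages, where 37.0% of genes did; Cdh2 did not (adjusted p = 0.79) and Perp was under the filter. In neutrophils 6 of 10 differed (Cdh1, Cldn3, Cldn4, Dsp, Epcam and Lad1), where 33.4% of genes did. Epcam, Cldn3 and Cldn7 in macrophages, and Cldn3 in neutrophils, passed the filter only through the 2208L libraries, so these counts are partly set by it. Over the 6 pairs of tumours, macrophages differed in 5 pairs for Cdh1, 4 each for Cldn4 and Lad1, 3 each for Cldn3, Dsp, Epcam and St14 and 2 for Cldn7, against 16.6% of gene and pair combinations. Neutrophils differed in 5 pairs for Cldn3, 3 each for Cdh1, Cldn4, Dsp, Epcam and Lad1 and 1 for Cdh2, against 13.2%.

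**Figure D3:**
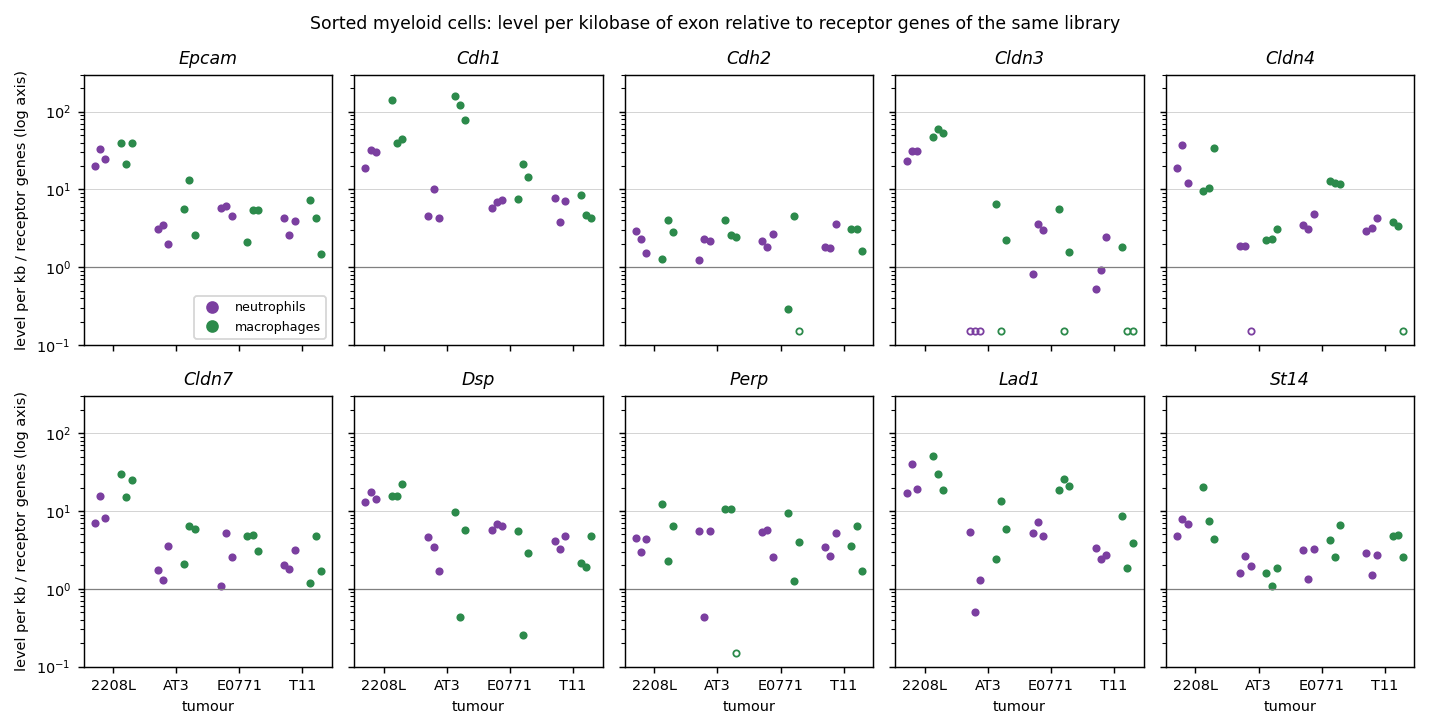
Level of each of the 10 genes per kb of exon, divided by that of the receptor genes in the same library, on a log axis, for neutrophils (purple) and macrophages (green) of 4 tumours; points are libraries (hollow at 0 counts) and the grey line is 1. The 2208L libraries lead for Epcam and Cldn3, AT3 macrophages stand beside 2208L macrophages for Cdh1, and E0771 macrophages beside them for Lad1 and Cldn4.

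In macrophages Epcam stood at 18.7, 27.2 and 52.3 CPM in 2208L tumours, 5.23, 1.71 and 0.905 in T11, 2.72, 7.32 and 5.33 in E0771 and 2.55, 4.71 and 1.48 in AT3. Cldn3 stood at 12.7, 43.3 and 40.9 CPM in 2208L and at 0 to 4.08 in the other 9 libraries. For both genes every 2208L library was above every other macrophage library. Against T11, 8 of the 9 genes tested were higher in 2208L macrophages, where 8.46% of genes were. Of these, Epcam, Cldn3 and Cldn7 passed the count filter only through the 2208L libraries, where they were highest, and Perp was removed by it. The count of 8 is thus partly set by the filter and is not on an equal footing with the share. When counts were scaled to the receptor genes, 2.4% of genes were higher and 7.5% lower, against 8.37% lower before, and with factors from genes above the background 10.5% and 5.89%. Cdh1 was higher by 3.97 ± 0.41 log2 (adjusted p = 1.3e-08), Epcam by 3.45 ± 0.75 (0.0011), Dsp by 3.35 ± 0.67 (0.00046), Lad1 by 3.12 ± 0.56 (0.00013) and Cldn7 by 3.82 ± 0.90 (0.0027). Cldn3 had 100 counts against 1, a ratio of 127 (counting interval 22.3 to 5074). Cldn4 (3.57 ± 0.98, 0.0097) and St14 (1.76 ± 0.56, 0.027) missed the threshold under the receptor scaling (0.052 and 0.17). They also missed it without T11 replicate 3 (0.054 and 0.13) or T11 replicate 2 (0.050 and 0.12), Cldn4 without 2208L replicate 3 (0.18), and St14 without 2208L replicate 1 or 2 (0.097 and 0.080). T11 macrophages held the neutrophil list at 3154 to 7929 CPM, against 248 to 297 in 2208L macrophages. Its part in the differences from T11 was not tested.

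As a share of the level in the cultured 2208L line, the genes differed widely within the same sorted libraries. In 2208L neutrophils Epcam stood at 22.1% (20.5% to 24% over 3 libraries), Cldn3 at 24.2%, Lad1 and St14 at 27.7% each, Cdh1 at 45.2% and Dsp at 87.4%. In 2208L macrophages the shares were 13.4% for Epcam (7.64% to 21.4%), 22.4% for Cldn3, 15.8% for Lad1, 17.3% for St14, 47.0% for Cdh1 and 52.9% for Dsp. Dsp and Cdh1 were not particular to 2208L neutrophils. Dsp had means of 110 CPM in T11, 93.5 in E0771 and 60.8 in AT3 neutrophils, against 49.1, 11.3 and 17.7 in their lines. Cdh1 had 77.8, 46.8 and 49.5 CPM there, against 9.43, 8.55 and 14.3. In those neutrophils neither stood above 10 times the receptor level per kb in all 3 libraries. Perp, the highest of the 9 per kb in the line, stood at 1.88% in neutrophils (1.01% to 2.4%) and 1.24% in macrophages (0.611% to 1.84%), below every other member in every library of both cell types. At 3.00 to 4.53 times the receptor level in neutrophils and 2.26 to 12.4 times in macrophages, Perp stayed near the background. The simple-epithelium keratins were also found: their summed level was 297 to 375 CPM in 2208L neutrophils and 168 to 327 in 2208L macrophages, against 3454 to 3724 in the line. Krt7, Krt8, Krt18 and Krt19 stood at 4.62%, 9.83%, 15.5% and 17.3% of the line in neutrophils and at 4.25%, 5.62%, 11.1% and 5.44% in macrophages. Each of these shares lay below that of Epcam in the same cell type. Krt19 was near the background, at no more than 5.29 times the receptor level in neutrophils and 3.17 times in macrophages. The part of tumour cell RNA in these levels was not tested. Scaled to all counts with Rn45s, each share is lower, since Rn45s takes more of the sorted libraries.

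**Figure D4:**
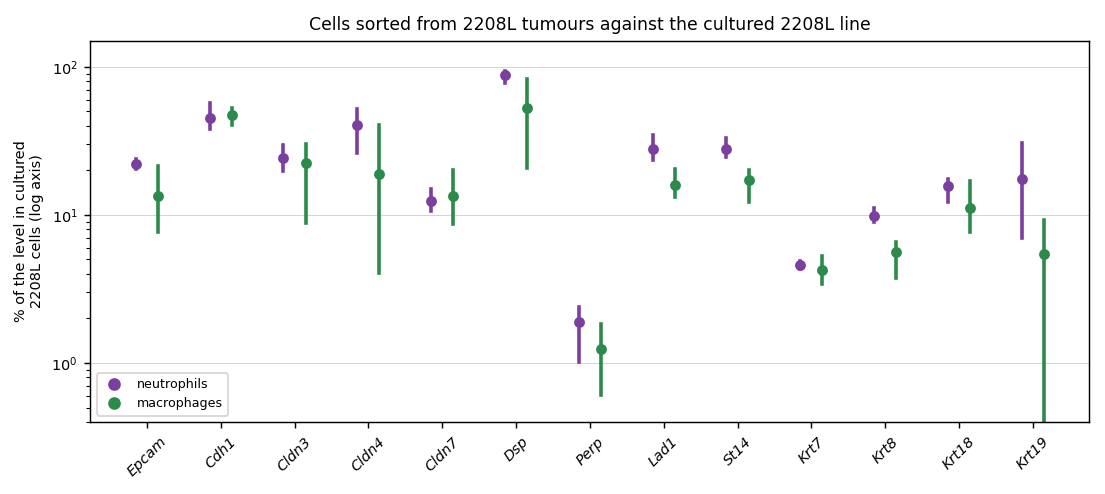
Level of 9 of the genes and 4 keratins in neutrophils and macrophages of 2208L tumours as a percent of the mean level in the cultured 2208L line, on a log axis; points are means and bars run from the lowest to the highest of 3 libraries. Perp lies lowest and Dsp and Cdh1 highest; the lower end of Krt19 in macrophages is 0 and runs off the axis.

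Cdh1 had a second high group in macrophages. It stood at 149, 90.1 and 94.1 CPM (176, 134 and 127 counts) in AT3 macrophages, beside 138, 105 and 124 in 2208L, 20.4, 58.6 and 30.2 in E0771 and 12.7, 3.99 and 5.43 in T11. The AT3 and 2208L libraries overlapped and both stood above all E0771 and T11 libraries. AT3 and 2208L macrophages did not differ beyond their spread (2208L minus AT3, -0.14 ± 0.32 log2), although the cultured lines did, AT3 at 14.3 ± 4.74 CPM (SD, n = 3) and 2208L at 260 ± 10.9. AT3 macrophages exceeded E0771 macrophages by 2.06 ± 0.36 (adjusted p = 0.00015), the only member higher in AT3, where 9.37% of genes were. Per kb, Cdh1 in AT3 macrophages was 79.2 to 157 times the receptor level. The 4 simple-epithelium keratins summed to 5.09 to 11.1 CPM there, with Krt19 at 0, against 60.0 to 71.9 in the AT3 line. Their part in the Cdh1 level was not tested. The dendritic cell list summed to 22.2 to 23.8 CPM in AT3 macrophages, against 172 to 514 in E0771 macrophages. Of 12 adherens junction genes tested beside it, 2 rose in AT3 macrophages, the catenins Ctnnd1 (1.01 ± 0.22) and Ctnnb1 (0.79 ± 0.23), and none fell, with a list median of -0.04 against -0.05 over all genes. Of 4 genes around matriptase tested, 1 rose, the inhibitor Spint1 (2.59 ± 0.37), and 3 fell, Spint2 (-3.40 ± 0.84), F2rl1 (-3.99 ± 0.90) and Prss8 (-2.35 ± 0.80). Of 11 tight junction genes tested, F11r (1.81 ± 0.30) and Cgnl1 (1.25 ± 0.36) rose and Inadl (-2.21 ± 0.52) and Tjp1 (-1.03 ± 0.37) fell.

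Lad1 and Cldn4 were instead high in E0771 macrophages. Lad1 stood at 36.8, 52.7 and 32 CPM (27, 36 and 36 counts) in E0771 macrophages, 37.4, 57.7 and 38.3 in 2208L, 9.72, 1.14 and 3.62 in T11 and 1.70, 7.40 and 5.19 in AT3. Cldn4 stood at 13.6, 13.2 and 9.78 CPM (10, 9 and 11 counts) in E0771, 3.74, 11.0 and 37.0 in 2208L and 0 to 2.24 in the other 6 libraries. For both, E0771 and 2208L macrophages overlapped and lay above T11 and AT3. In the cultured E0771 line Lad1 was 4.11, 2.95 and 3.78 CPM and Cldn4 0, 0.785 and 0.504. AT3 macrophages were below E0771 macrophages for 3 of the 9 genes tested, where 9.27% of genes were: Lad1 by -2.57 ± 0.56 log2 (adjusted p = 0.002), Cldn4 by -3.05 ± 1.02 (0.035) and St14 by -2.40 ± 0.65 (0.011). Scaled to the receptor genes, 28.6% of genes were higher and 2.63% lower (with factors from genes above the background 4.86% and 12.4%, without the count filter 8.54% and 4.86%, with only these 2 groups in the fit 6.91% and 12.8%), and Cldn4 (-2.16, 0.093) and St14 (-1.53, 0.099) were not called. Cldn4 also missed the threshold without any 1 of 5 of the 6 AT3 and E0771 libraries, and St14 without AT3 replicate 2 (0.070). E0771 macrophages exceeded T11 macrophages by 2.84 ± 0.57 for Lad1 (0.00039) and 3.02 ± 0.99 for Cldn4 (0.022), and 2208L and E0771 did not differ beyond their spread in either (0.28 ± 0.48 and 0.56 ± 0.82). Ccr7, of the dendritic cell list, stood at 270 ± 139 CPM (SD, n = 3) in E0771 macrophages, against 38.3 in 2208L, 4.45 in AT3 and 3.27 in T11. The keratins summed to 17.7 to 57.1 CPM in E0771 macrophages. Their part, and that of the dendritic cell genes, in the Lad1 and Cldn4 levels was not tested.

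In neutrophils Epcam stood at 50.02, 53.2 and 58.6 CPM in 2208L, 22.6, 20.4 and 22.7 in T11, 19.8, 17.9 and 17 in E0771 and 15.8, 9.06 and 10.0 in AT3. Cldn3 stood at 33.3, 28.7 and 42.6 CPM in 2208L and 0 to 8.25 in the others, and Lad1 at 65.6, 97.0 and 70.6 in 2208L and 2.01 to 42.7 in the others. For these 3 genes every 2208L library lay above all others. In 2208L against T11 neutrophils, 6 of 10 genes were higher, where 19.6% of genes were: Cldn3 by 3.48 ± 0.58 log2 (adjusted p = 4.7e-05), Lad1 by 2.13 ± 0.40 (0.00016), Epcam by 1.87 ± 0.34 (0.0001), Cldn4 by 1.67 ± 0.45 (0.0053), Cdh1 by 1.16 ± 0.28 (0.0024) and Dsp by 0.90 ± 0.28 (0.014). Other marker lists moved with this comparison: the macrophage list stood at 2811 to 3563 CPM in 2208L neutrophils and 522 to 1040 in T11, the keratins at 297 to 375 and 64.6 to 83.6, the leukocyte markers at 1639 to 2131 and 544 to 1070, and the neutrophil list at 6697 to 9879 and 2471 to 6856. The fibroblast list stood lower in 2208L, at 221 to 328 CPM against 512 to 578, as did the dendritic cell list, at 53.2 to 97.2 against 200.2 to 224. The basal keratins Krt5, Krt14 and Krt17 also stood lower, at 19.4 to 40.0 CPM in 2208L against 70.1 to 83.6 in T11. So did endothelial genes, at 118 to 147 against 197 to 363, and T and NK cell genes, at 36.3 to 57.3 against 70.1 to 91.7. Mast cell and basophil genes stood at 21.1 to 25.3 against 69.3 to 70.1. Their part in these differences was not tested. Cdh2 was lower by 1.00 ± 0.38 (0.039), where 15.0% of genes were. It stood at 35.5, 51.0 and 76.3 CPM in T11 neutrophils and 26.7, 13.5 and 13.3 in 2208L, at 1.52 to 3.56 times the receptor level, so these values lie near the background.

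These neutrophil differences depended on the scaling. With factors from genes above the background, 2.44% of genes were higher in 2208L and 69.4% lower, and of the 6 genes only Cldn3 was called higher (2.11, adjusted p = 0.014). Scaled to the receptor genes, 42.8% were higher and 0.25% lower, and all 6 were called. With DESeq2 the shares were 19.2% and 9.03%. Cdh2 was not called under 6 of 8 alternative settings. Between AT3 and E0771 neutrophils 1 gene passed, Cldn3 (adjusted p = 0.049), lower in AT3, where 2.15% of genes were and 2.4% were higher. Those shares were 1.95% and 0.663% with factors from genes above the background and 10.6% and 0.413% under the receptor scaling. It had 0 counts in each of the 3 AT3 libraries, which allows up to 3.02 to 4.74 CPM, and 1.65, 5.98 and 6.37 CPM in E0771. Against a floor of 3 counts over the AT3 group, the 8 counts of E0771 stood 3.55-fold higher. That value leaves out the counting error of E0771. The call was lost without any 1 of 11 of the 12 neutrophil libraries (adjusted p up to 0.18). Cldn3 passed the count filter of the fit over 12 libraries only through the 2208L neutrophils, with a mean of 34.9 CPM. With only AT3 and E0771 neutrophils in the fit it was under the filter and had no test.

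Between the cell types of the same tumours, 7 of the 10 genes were lower in macrophages than in neutrophils by CPM, where 45.4% of genes were and 31.2% were higher. Dsp was lower by 1.73 ± 0.24 log2 (adjusted p = 2.4e-08), Cdh2 by 1.41 ± 0.33, Perp by 1.26 ± 0.41, Epcam by 1.18 ± 0.28, St14 by 1.16 ± 0.24, Cldn4 by 0.99 ± 0.39 and Cldn7 by 0.87 ± 0.36, over a median of all genes of -0.43. Cdh1 (0.05 ± 0.19) and Lad1 (-0.44 ± 0.26) did not pass. Scaled to the receptor genes the median of all genes was 1.18, with 57.4% of genes higher and 1.78% lower. Under that scaling none of the 7 was called, 6 of them changed sign, and Cdh1 (1.69) and Lad1 (1.16) were called higher. With factors from genes above the background the median was -1.52, 74.9% of genes were lower and 7.38% higher, and the 7 stayed lower. The shares were 52.7% lower and 23.4% higher with RLE factors, and 53.2% and 23.5% with DESeq2.

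Taken tumour by tumour, this comparison differed. In 2208L tumours none of the 10 genes differed between macrophages and neutrophils, where 9.12% of genes did. In T11 tumours 9 were lower in macrophages, where 38.1% of genes were, all but Cldn3. The receptor genes too were lower there, at 0.184 to 0.328 CPM per kb in T11 macrophages against 2.43 to 3.52 in T11 neutrophils. In neither group did a member stand above 10 times the receptor level in all 3 libraries. The neutrophil list stood at 3154 to 7929 CPM in T11 macrophages, beside 2471 to 6856 in T11 neutrophils. Its part in this comparison, and that of the receptor background, was not tested. In E0771 tumours 1 was lower, Dsp (-2.12), where 5.91% of genes were. In AT3 tumours Cdh2 (-1.70), Dsp (-1.57) and St14 (-2.69) were lower, where 30% of genes were. Cdh1 alone was higher in AT3 macrophages, by 1.91 ± 0.34 (adjusted p = 1.3e-05), where 21.9% were. Without the 2208L tumours Cldn4 was not called (-1.0, adjusted p = 0.058) and the 6 other genes were still lower, where 45.5% of genes were. Whether the tumours differ in this comparison was not tested directly.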

How the data were processed

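The authors deposited 1 table of raw gene counts for 24054 symbols. The tools named in the submitters' processing notes are bcl2fastq 2.17 and STAR 2.4.2a, with the build mm10. The counting program and its annotation are not given in the sources used here. Per the labels' protocols, libraries followed the method of Sheng and colleagues. Libraries were grouped by title, and the table's PyMTE columns were taken as PyMT-N, the only line without columns of its own. Symbols were matched to GENCODE M21 for exon length, with 22750 matches by symbol, 916 through a synonym and 388 without one.

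The Rn45s row was left out of totals and tests. The test was edgeR's quasi-likelihood test (edgeR 4.0.16, R 4.3.3, TMM factors, filterByExpr with a minimum count of 10 and total of 15, Benjamini-Hochberg adjustment over all genes tested, threshold 0.05 on the adjusted p). All 24 line libraries, all 24 sorted libraries, and the 12 of each cell type for comparisons among tumours, were fitted together, testing 18183, 19056, 17202 (neutrophils) and 13933 (macrophages) genes. Cell types were compared by averaging the difference within each of the 4 tumours. Levels are CPM without TMM factors, so their order can differ from that of fitted differences. For Cldn3, where 1 of 2 lines or macrophage groups held 1 to 3 counts, the ratio of summed counts is given with an exact binomial interval, which covers counting error only. Fitted Cldn3 values stand where pairs of lines were compared and among the alternatives, and there they depend on the fit's prior count.

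Alternatives were RLE factors, no filter, Rn45s kept, DESeq2 1.42.0, a replicate block, only the 2 groups in the fit, and leaving out each library. Factors from genes at least 10 times above the receptor genes, scaling to the receptor genes, a replicate block within tumour, single tumours, the set without 2208L and pairs of tumours were chosen after seeing the data. The 48 pairs of replicates differed by 1.31 to 19.0 in chi-square per degree of freedom, and no pair held identical counts. The 67NR pairs were lowest as a set, at 1.31, 1.43 and 1.32. Such values cannot tell whether the same library was sequenced again. On simulated counts for 2208L against T11 lines (17390 genes), 24 of 49 genes changed 1.5-fold, 25 of 48 changed 2-fold, 47 of 50 changed 4-fold and 45 of 46 changed 8-fold were called, with 3 of 17197 unchanged genes.

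All 10 members are named. For each, genes alike were the 3 non-members with the highest Pearson correlation over the 8 line means, at a minimum of 20 CPM in the highest line, of which the first or all 3 are given. Context lists are given by counts with up to 4 of their called genes of largest difference. The members, lists and alternatives were chosen with earlier results of these data known. Summaries and figures used Python 3.11.15, pandas 2.3.3, numpy 2.4.6 and matplotlib 3.10.9.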

Additional observations from a re-analysis of the deposited data

Results flagged for a closer look

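Differences between pairs of lines were picked out where the test of the difference itself passed. Between the PyMT pair and the 4T1 and 67NR pair they were 10.68 (log2, the PyMT pair minus the other) for Cdh2, 2.18 for Cldn7, 1.28 for Perp, 1.22 for Dsp, 0.98 for Epcam and 0.80 for Cdh1. Cdh2 was higher in PyMT-N than in PyMT-M and lower in 4T1 than in 67NR.

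Between the AT3 and E0771 pair and the 2208L and T11 pair (the former minus the latter) they were -7.46 for Lad1, -6.78 for Epcam, -6.39 for St14, -5.84 for Cldn4, -4.79 for Cldn7, -4.44 for Perp, -4.35 for Cdh1, -1.27 for Dsp and 2.74 for Cdh2. Cldn3 had -6.16, a fitted value that rests on 3 counts in E0771 and missed the threshold without E0771 replicate 2 (adjusted p = 0.060). AT3, marked Epi by the authors, had the genes other than Cdh2 low, as did E0771, marked Mes. The 2208L line had those 9 genes high, and T11 had them lower, with Dsp and Perp still clear of the receptor background.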

How the results depend on the processing

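Calls on the 10 genes in PyMT-N against PyMT-M (240 refits), 4T1 against 67NR (240), 2208L against T11 lines (216) and the mean of the 4 pairs (240) held without each library and under every alternative tried. Depth limits the sorted cells, where 3 counts stand for up to 6.37 CPM in neutrophils.

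Replicate numbers were not taken to pair libraries: deviations of same-numbered libraries had a median correlation of 0.00033 in lines, -0.011 in neutrophils and -0.0072 in macrophages, and exceeded 0.1 in 3 of 84, 1 of 18 and 0 of 18 pairs. Neutrophils and macrophages of a tumour also share numbers in the column names, which may stand for the same animals; their median correlation was -0.011, over 0.1 in 2 of 12 pairs. With a replicate block within tumour, 14265 genes were called between macrophages and neutrophils (14584 before), and 6 of the 7 members stayed lower, Cldn7 missing the threshold (-0.84, adjusted p = 0.075). With a replicate block, 0 members were lower in 2208L than T11 neutrophils and 0 in AT3 than E0771 neutrophils, and Cdh2 in AT3 against E0771 macrophages was 0.49 (log2).

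In 2208L against T11 neutrophils 0 members were lower with RLE factors, without the count filter, with Rn45s kept, with DESeq2 and scaled to the receptor genes. For AT3 against E0771 neutrophils 0 were lower with RLE factors, Rn45s kept, DESeq2 or factors from genes above the background. With only the 2 groups in the fit 0 were lower as well, but there Cldn3 was under the count filter and had no test.

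With factors from genes above the background, genes called were 11476 for any difference among neutrophils (5741 before), 12352 for 2208L against T11 neutrophils (5950) and 449 for AT3 against E0771 neutrophils (782). In 2208L against T11 neutrophils 1 member was then higher and 2 lower, with Cdh1 at -0.21, Cldn7 at -0.30, Dsp at -0.52 and St14 at -0.91. In AT3 against E0771 neutrophils Cdh1 was -0.068, Cdh2 -0.12, Cldn7 -0.11 and St14 -0.25. St14 in the PyMT pair minus the 4T1 and 67NR pair was -0.20.

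Scaled to the receptor genes, genes called were 1379 in 2208L against T11 macrophages (2345 before), 4352 in AT3 against E0771 macrophages (2598), 8637 for any difference among neutrophils and 1900 in AT3 against E0771 neutrophils. In AT3 against E0771 macrophages 1 member was lower, with Epcam at 0.64, Cdh2 0.94, Cldn3 0.26, Cldn7 0.19 and Dsp 0.86. In AT3 against E0771 neutrophils Cdh1 was -0.084, Cdh2 -0.21, Cldn7 -0.37, Perp -0.22 and St14 -0.32, and Perp in 2208L against T11 neutrophils was 0.11. In macrophages against neutrophils 2 members were higher and 0 lower, with Epcam at 0.40, Cdh2 0.15, Cldn3 1.19, Cldn4 0.50, Cldn7 0.71, Perp 0.39, Lad1 1.16 and St14 0.47.

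Cdh1 in macrophages against neutrophils was -0.26 with RLE factors, -0.26 with DESeq2 and -1.03 with factors from genes above the background. Without the count filter, Cdh2 in AT3 against E0771 macrophages was 0.17 and Dsp 0.22, and Dsp 0.019 with Rn45s kept. With only the 2 groups in the fit, 284 genes were called in AT3 against E0771 neutrophils. The cause of these changes was not tested.

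Leaving out 1 library, members higher in AT3 than E0771 lines ran from 1 to 5, members higher in the PyMT pair minus the 4T1 and 67NR pair from 3 to 7, and members lower from 1 to 3 in AT3 against E0771 macrophages, 0 to 1 in 2208L against T11 neutrophils and 0 to 3 in AT3 against E0771 neutrophils. Genes called ran from 1461 to 3049 in AT3 against E0771 macrophages, 1561 to 2637 in 2208L against T11 macrophages, 3400 to 7187 in 2208L against T11 neutrophils, 209 to 2692 in AT3 against E0771 neutrophils and 3759 to 7900 for any difference among neutrophils. Differences that did not pass ran as follows. Lad1 in AT3 against E0771 lines ran from -0.071 to 0.11. In AT3 against E0771 macrophages Cdh2 ran from -0.65 to 3.36, Cldn3 from -1.46 to 0.80, Dsp from -0.57 to 0.91 and Epcam from -0.88 to 0.041. For AT3 against E0771 neutrophils Cldn7 ran from -0.51 to 0.82, Perp from -0.10 to 0.93 and St14 from -0.20 to 0.43. In the PyMT pair minus the 4T1 and 67NR pair Cldn3, with PyMT-M at 1 count and 67NR at 3, ran from -0.38 to 4.74 and St14 from -0.23 to 0.24. In macrophages against neutrophils Cdh1 ran from -0.14 to 0.12 and Cldn3 from -0.52 to 0.10.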
